A study of Mus musculus with 24 samples.

Results

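Arg1, Chil3, Retnla, Rnase2a, Ear2 and Mrgprg are 6 of the 14159 genes measured in injured and uninjured mouse quadriceps, and all 6 were found by their symbol in the deposited expression matrix. They were selected on earlier results of these same libraries. Their levels and differences between groups are therefore given below as a description. Where calls over all genes include some of them, these calls are not a test of them. Tests are read only for other genes, in lists that were also chosen with earlier results of these data known.

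The libraries came from female C57BL/6J (B6) mice and from female MRL/MpJ (MRL) mice, an inbred strain studied for its regeneration of ear tissue and its tendency to autoimmunity, that were 6 to 8 weeks old at surgery. In volumetric muscle loss, part of the quadriceps is cut out, leaving a gap that the muscle cannot fill by itself. The gap was treated with saline as the vehicle control, with decellularized extracellular matrix of porcine small intestine (ECM), or with polyethylene powder (PE), and muscle was collected 21 days after the injury. Uninjured muscle of each strain was the fourth group, so that 8 groups of 3 libraries, 24 in all, were compared. Whole quadriceps was sequenced as bulk RNA, in which fewer cells of a type and less RNA per cell cannot be told apart. The ECM is a material of another species, and no group received ECM or PE without an injury.

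Macrophages exposed to the type 2 cytokines IL-4 and IL-13 enter a state known as alternative activation. Both cytokines signal through a receptor that contains IL-4 receptor alpha and activate the transcription factor STAT6, which turns on a characteristic set of genes in mouse macrophages. Arginase 1 (Arg1), the chitinase-like protein Ym1 (Chil3) and the resistin-like molecule alpha (Retnla) are the classic mouse markers of that state and are known from parasite infection, allergy and wound repair. Arg1 breaks arginine down to ornithine and urea and so competes with nitric oxide synthase for its substrate. Chil3 is a secreted lectin without chitinase activity, and Retnla is a secreted cysteine-rich protein. Rnase2a and Ear2 belong to the eosinophil-associated ribonucleases, small secreted enzymes found in eosinophils and in some macrophages. Mrgprg encodes a receptor of the Mas-related G protein-coupled family.

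In the GENCODE annotation of the GRCm39 mouse genome all 6 are protein-coding genes. Arg1 lies on chromosome 10 (chr10:24791118-24803817, minus strand), Chil3 on chromosome 3 (chr3:106054870-106074880, minus strand) and Retnla on chromosome 16 (chr16:48662895-48664824, plus strand). Mrgprg lies on chromosome 7 (chr7:143317447-143320733, minus strand). Rnase2a (chr14:51492719-51493595, minus strand) and Ear2 (chr14:44311771-44340996, plus strand) share chromosome 14 but lie 7151723 bases apart.

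Since all 6 genes lay higher after ECM than after PE in B6 mice, the sequence before the RefSeq start is shown for the 5 genes that the RefSeq promoter table holds. The RefSeq start of Ear2 lies inside the span that GENCODE gives this gene, so that its window is not the sequence before the annotated start of the span above. The sequences were taken from RefSeq (GRCm38.p6), each matched once and exactly to GRCm39, and are printed 5′ to 3′ on the strand of the gene up to the first annotated exon base. Capitals mark matches, on either strand, to 5 motifs that were searched in the 250 bases before the RefSeq start. The motifs were the STAT motif with 3 bases between its arms (TTCNNNGAA), the STAT6 motif with 4 bases between them (TTCNNNNGAA), the core of C/EBP sites (TTNNGCAA), the ETS motif bound by PU.1 (AGGAAGT) and the TATA box (TATAAA).
Chil3, chr3:106074881-106075130, minus strand: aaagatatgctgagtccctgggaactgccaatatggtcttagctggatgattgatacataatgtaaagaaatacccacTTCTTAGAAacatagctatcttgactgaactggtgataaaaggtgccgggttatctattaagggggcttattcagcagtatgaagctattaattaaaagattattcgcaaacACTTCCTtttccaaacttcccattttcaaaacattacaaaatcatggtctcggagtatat
Retnla, chr16:48662722-48662894, plus strand: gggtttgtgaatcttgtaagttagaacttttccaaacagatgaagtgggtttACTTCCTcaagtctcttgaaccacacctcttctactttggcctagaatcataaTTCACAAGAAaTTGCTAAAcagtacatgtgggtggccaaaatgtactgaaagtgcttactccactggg
Rnase2a, chr14:51493596-51493819, minus strand: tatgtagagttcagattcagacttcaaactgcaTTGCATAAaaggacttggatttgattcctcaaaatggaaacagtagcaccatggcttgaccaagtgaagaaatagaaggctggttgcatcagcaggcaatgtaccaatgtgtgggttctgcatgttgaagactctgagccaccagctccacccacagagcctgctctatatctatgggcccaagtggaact
Ear2, chr14:44339861-44340110, plus strand: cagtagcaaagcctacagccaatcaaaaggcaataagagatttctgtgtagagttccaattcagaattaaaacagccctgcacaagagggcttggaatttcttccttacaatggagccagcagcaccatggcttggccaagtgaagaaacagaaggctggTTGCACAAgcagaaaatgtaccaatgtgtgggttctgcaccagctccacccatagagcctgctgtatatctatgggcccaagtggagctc
Mrgprg, chr7:143320734-143320980, minus strand: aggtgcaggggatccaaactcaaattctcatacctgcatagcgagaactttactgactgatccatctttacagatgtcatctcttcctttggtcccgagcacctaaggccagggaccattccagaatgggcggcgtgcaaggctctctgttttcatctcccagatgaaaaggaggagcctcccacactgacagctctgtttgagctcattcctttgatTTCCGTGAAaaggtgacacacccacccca

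No motif was shared by all 5 windows. Retnla held the STAT6 motif, at position -145 from the RefSeq start, which 5.85% of all 32851 RefSeq windows of this length held. Chil3 and Mrgprg each held 1 STAT motif with the shorter gap, at positions -172 and -32, against 7.02% of all windows. The C/EBP core was found in Retnla, Rnase2a and Ear2 (9.56% of all windows) and the PU.1 motif in Chil3 and Retnla (7.69% of all windows). A TATA box was found in Retnla, at position -30 and within the exon that GENCODE annotates there, so that it is not in the printed run (12.4% of all windows). The windows of Rnase2a and Ear2 were alike over 223 aligned positions, of which 79.4% were identical, whereas no other pair aligned over more than 38 positions. These matches describe letters in a window and do not show a bound factor.

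Members of these gene families resemble each other, which bears on how reads are shared between them. The Chil3 transcript was 94.3% identical to that of Chil4 (Ym2) over 1540 aligned bases, and the Ear2 transcript was 96.4% identical to Ear1 and 94.5% identical to Ear10. Chil4, Ear1 and Ear10 were not analysed here, so that the values of Chil3 and Ear2 are uncertain as to which copy the reads came from. Rnase2a and Ear2 were 81.6% identical to each other. Retnla was 82.9% identical to its closest relative, Retnlg, and Arg1 and Mrgprg had no match.

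Levels are given as the deposited log2 CPM, in which read counts are scaled to a common library size, normalised, and placed on a log2 scale with a small prior added. On this scale a count of 0 reads -3.65, and 3 counts at the mean library size of 25149678 read -2.33 (0.119 CPM), below which a level is not distinguished from 0. CPM values are not divided by transcript length and are compared between groups, not between genes. Arg1 was at or under that floor in 1 of the 24 libraries, Ear2 in 1, Chil3 in 7, Retnla in 10, Rnase2a in 10 and Mrgprg in 15.

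Markers of muscle fibres were high in all libraries (mean log2 CPM of 6 markers from 11.51 to 14.13), as the tissue label states. One PE-treated MRL library, replicate 2, stood apart from its group. Its correlations with the other 2 libraries over all genes were 0.812 and 0.827, against 0.904 to 0.976 between libraries of the same group elsewhere. Its mean level of 9 macrophage markers was 6.65 against 3.76 and 3.72, and its mean level of muscle fibre markers was 11.51 against 13.23 and 13.26. Differences that it moved by over 1.5 times are given with and without it.

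**Figure D1:**
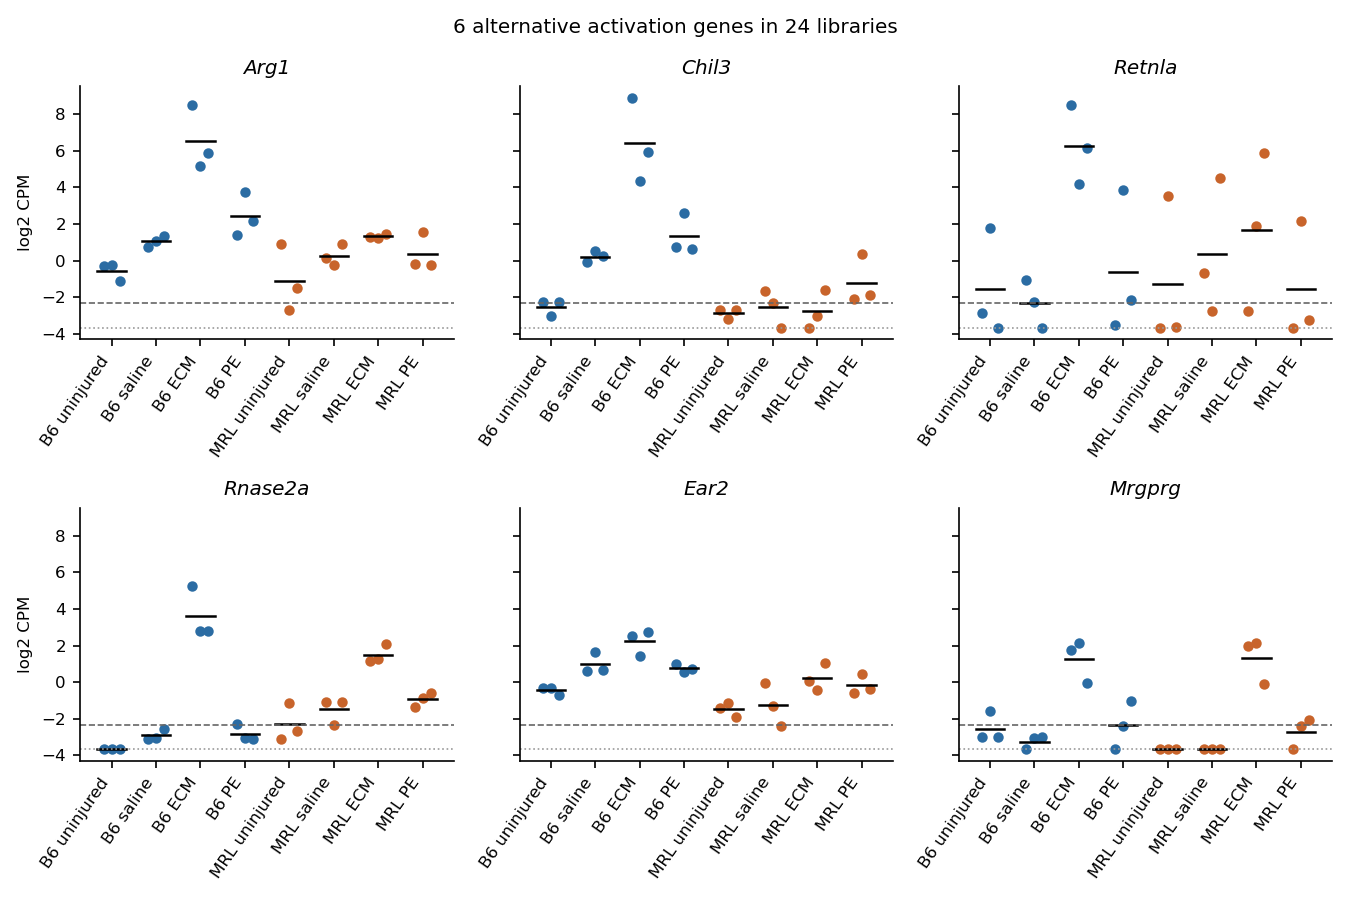
Level of each of the 6 genes (vertical axis, log2 CPM) in the 24 libraries by group (horizontal axis). Points are libraries, black bars are group means, blue is B6 and orange is MRL, the dotted line is a count of 0 (-3.65) and the dashed line is 3 counts (-2.33). Arg1, Chil3, Retnla and Rnase2a were highest in ECM-treated B6 muscle, and Mrgprg was high in the ECM groups of both strains.

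Arg1 was low in uninjured muscle (mean 0.623 CPM in B6 and 0.72 CPM in MRL mice) and reached its highest levels in ECM-treated B6 muscle. Uninjured MRL replicate 1 (0.92) nevertheless lay above the 3 saline-treated MRL libraries. In B6 mice it read -0.30, -0.26 and -1.13 in uninjured muscle, 0.75, 1.10 and 1.37 after saline, 8.51, 5.19 and 5.88 after ECM, and 1.40, 3.77 and 2.19 after PE. In MRL mice it read 0.92, -2.68 and -1.50 in uninjured muscle, 0.14, -0.23 and 0.90 after saline, 1.30, 1.25 and 1.47 after ECM, and -0.20, 1.54 and -0.22 after PE. The 3 ECM-treated B6 libraries lay above the other 21 without overlap. The ECM-treated MRL libraries (1.25 to 1.47) lay within the range of the PE-treated MRL ones only through PE replicate 2 (1.54), the library that stands apart. In linear units the mean of Arg1 was 153 CPM in ECM-treated B6 muscle and 2.46 CPM in ECM-treated MRL muscle, a ratio of 62.5. Without replicate 1 of ECM-treated B6 muscle (365 CPM) the B6 mean was 47.6 CPM and the ratio 19.4. The order of the group means after ECM-treated B6 was PE-treated B6 (2.46 ± 1.21, SD, n = 3), ECM-treated MRL (1.34 ± 0.11) and saline-treated B6 (1.07 ± 0.31), and these neighbours overlapped.

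Chil3 ranged in B6 mice from near the floor in uninjured muscle to 479 CPM in 1 ECM-treated library, and remained close to the floor in most MRL libraries. In B6 mice it read -2.24, -3.04 and -2.23 in uninjured muscle, -0.07, 0.52 and 0.23 after saline, 8.91, 4.36 and 5.94 after ECM, and 0.74, 2.62 and 0.62 after PE. In MRL mice it read -2.69, -3.17 and -2.69 in uninjured muscle, -1.63, -2.33 and -3.65 after saline, -3.65, -3.01 and -1.58 after ECM, and -2.10, 0.37 and -1.87 after PE. The 4 B6 groups were ordered without overlap, from uninjured muscle through saline and PE to ECM, although the gap between saline (up to 0.52) and PE (from 0.62) was narrow. The highest of the MRL libraries, at 0.37, was the PE-treated replicate 2 that stands apart. Among the 12 MRL libraries 2 held a count of 0, and 1 of these was treated with ECM. Mean Chil3 was 187 CPM in ECM-treated B6 muscle and 0.0998 CPM in ECM-treated MRL muscle, the latter under the floor, so that no ratio is given. Without replicate 1 the B6 mean was 41.0 CPM.

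Retnla varied widely between libraries of the same group. In B6 mice it read -2.86, 1.79 and -3.65 in uninjured muscle, -1.04, -2.28 and -3.65 after saline, 8.50, 4.18 and 6.16 after ECM, and -3.52, 3.87 and -2.14 after PE. In MRL mice it read -3.65, 3.52 and -3.61 in uninjured muscle, -0.66, -2.75 and 4.52 after saline, -2.76, 1.90 and 5.86 after ECM, and -3.65, 2.15 and -3.22 after PE. ECM-treated B6 muscle was the only group in which all 3 libraries were clearly above the floor. Each other group except saline-treated B6 held at least 1 library above 1 CPM together with at least 1 library at or under the floor. The SD within groups was 1.31 to 4.32, and the highest MRL library (5.86, replicate 3 of ECM) lay within the range of the ECM-treated B6 libraries. Retnla is also known to be made in fat. Its Pearson correlation with the adipocyte marker mean was -0.20 over the 24 libraries and -0.01 for deviations from the group means. The part of fat in its levels was not tested.

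Rnase2a was the only one of the 6 genes that separated ECM from every other treatment in both strains while also differing between the strains. In B6 mice it read -3.65 in all 3 uninjured libraries, -3.09, -3.06 and -2.57 after saline, 5.24, 2.78 and 2.80 after ECM, and -2.27, -3.03 and -3.13 after PE. In MRL mice it read -3.10, -1.13 and -2.69 in uninjured muscle, -1.07, -2.32 and -1.08 after saline, 1.13, 1.26 and 2.09 after ECM, and -1.35, -0.87 and -0.59 after PE. Outside ECM, 8 of the 9 B6 libraries were at or under the floor, and the ninth was at 0.128 CPM. With ECM the mean was 17.1 CPM in B6 and 2.87 CPM in MRL muscle, a ratio of 5.97, which was 2.38 without replicate 1 of ECM-treated B6 muscle. The order of the strains was the opposite after PE and saline, where all MRL libraries were above all B6 libraries at levels of 0.12 to 0.584 CPM.

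Ear2 was lower in MRL than in B6 mice in each of the 4 treatments and was highest after ECM in both strains. In B6 mice it read -0.34, -0.32 and -0.69 in uninjured muscle, 0.60, 1.64 and 0.67 after saline, 2.50, 1.44 and 2.74 after ECM, and 1.00, 0.58 and 0.71 after PE. In MRL mice it read -1.40, -1.13 and -1.89 in uninjured muscle, -0.05, -1.32 and -2.39 after saline, 0.07, -0.42 and 1.07 after ECM, and -0.59, 0.42 and -0.36 after PE. ECM was above PE without overlap in B6 mice but overlapped saline, since the saline replicate at 1.64 exceeded the ECM replicate at 1.44. Each of the 4 B6 groups was wholly above the MRL group with the same treatment. The highest Ear2 level of all was 6.6 CPM, so that the whole range of this gene lay within a few CPM.

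Mrgprg was high after ECM in both strains and nearly absent elsewhere. In B6 mice it read -3.02, -1.59 and -3.01 in uninjured muscle, -3.65, -3.06 and -3.02 after saline, 1.73, 2.12 and -0.07 after ECM, and -3.65, -2.37 and -1.01 after PE. In MRL mice it read -3.65 in all 3 uninjured and all 3 saline-treated libraries, 1.96, 2.15 and -0.08 after ECM, and -3.65, -2.41 and -2.09 after PE. The ECM groups of both strains covered the same range, and each had 2 libraries near 2 and 1 near 0. Mean Mrgprg was 2.79 CPM in ECM-treated B6 and 3.01 CPM in ECM-treated MRL muscle. Against saline-treated MRL muscle, where all 3 libraries held a count of 0, the MRL mean after ECM was at least 25.3-fold higher, taking 3 counts per library as the floor. Outside ECM 15 of the 18 libraries were at or under the floor.

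The comparison of ECM with PE asks how a regenerative material differs from one that provokes fibrosis. In B6 mice the difference in log2 CPM was 4.07 for Arg1 (SE 0.83), 5.08 for Chil3 (SE 0.91), 6.88 for Retnla (SE 2.52), 6.42 for Rnase2a (SE 0.62), 1.46 for Ear2 (SE 0.52) and 3.60 for Mrgprg (SE 0.74). Differences and their standard errors are limma coefficients from a fit over all 24 libraries, and those of genes near the floor depend on the prior. All 6 genes had their 3 ECM libraries wholly above the 3 PE libraries, a pattern that 14.6% of all genes showed. In MRL mice the difference was 0.97 for Arg1, -1.55 for Chil3, 3.24 for Retnla, 2.43 for Rnase2a, 0.42 for Ear2 and 4.06 for Mrgprg, with the same standard errors as in B6. Only Rnase2a and Mrgprg, 2 of the 6, were wholly above PE in MRL mice, against 15% of all genes. Because the 6 genes were chosen with results of these contrasts known, nothing is read from the counts.

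**Figure D2:**
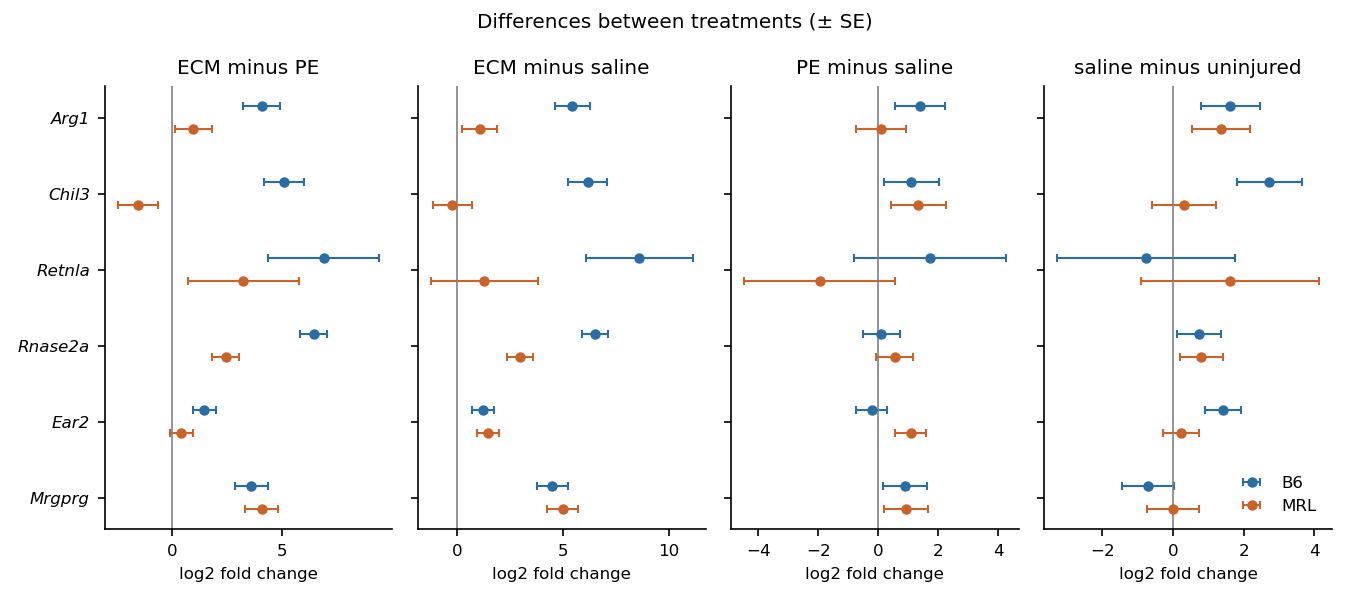
Difference between treatments for each gene (horizontal axis, log2 fold change; vertical axis, gene) in 4 comparisons, with B6 in blue and MRL in orange. Points are limma coefficients and bars their standard errors, with 3 libraries in each group; Mrgprg had nearly the same ECM minus PE difference in both strains (3.60 and 4.06), whereas Chil3 did not (5.08 and -1.55).

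Leaving out 1 library changed the size but not the direction of most of these differences. Without replicate 1 of ECM-treated B6 muscle, the library with the highest Arg1, Chil3, Retnla and Rnase2a, the ECM minus PE differences in B6 were 3.08, 3.83, 5.77 and 5.60 for these 4 genes. The MRL difference of Retnla was 1.14 without ECM replicate 3 and 5.45 without ECM replicate 1. Without replicate 2 of PE-treated MRL muscle, the differences in MRL were 1.55 for Arg1, -0.77 for Chil3, 5.10 for Retnla, 2.47 for Rnase2a, 0.72 for Ear2 and 4.22 for Mrgprg.

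Against saline, which asks what ECM adds to an injury alone, the B6 differences were 5.45 for Arg1, 6.17 for Chil3, 8.61 for Retnla, 6.51 for Rnase2a, 1.25 for Ear2 and 4.50 for Mrgprg. Of the 6 genes 5 were wholly above saline, and Ear2 overlapped it, against 4.53% of all genes. The MRL differences were 1.07, -0.21, 1.29, 2.99 and 1.49 for the first 5 genes in the same order. Mrgprg was at 1.34 ± 1.23 (SD, n = 3) after ECM in MRL mice, and its fitted difference is not given because every saline library held a count of 0. In these mice Arg1, Rnase2a and Mrgprg were wholly above saline, against 6.8% of all genes. The sign for Retnla and Chil3 in MRL mice changed in 4 and 3 of the 13 alternative analyses, respectively. In the fit over all genes the genes called at an adjusted p under 0.05 (limma, Benjamini-Hochberg) between ECM and saline in B6 mice were Arg1, Chil3, Rnase2a and Mrgprg, 4 of 14159 or 0.0283%. In MRL mice the sole gene called was Mrgprg, 0.00706% of all genes. Since the 6 genes were chosen with such results known, these calls are not a test of them. They also depended on the fit, since 0 genes of the matrix were called in this B6 comparison when the compared groups were fitted alone and 0 in the MRL comparison on the log2(CPM + 1) scale.

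In B6 mice the differences of PE from saline and of saline from uninjured muscle were smaller than those of ECM from saline, except that Ear2 differed more between saline and uninjured muscle (1.42) than between ECM and saline (1.25). The PE minus saline differences in B6 mice were 1.38 for Arg1, 1.10 for Chil3, 1.73 for Retnla, 0.10 for Rnase2a, -0.21 for Ear2 and 0.90 for Mrgprg. Arg1 and Chil3 were wholly above saline, 2 of the 6, against 18.7% of all genes. In MRL mice the differences were 0.10, 1.34, -1.95, 0.55, 1.08 and 0.93 in that order, and none of the 6 genes was wholly above saline, against 10.8% of all genes. Without replicate 2 of PE-treated MRL muscle the MRL differences of Arg1, Chil3 and Retnla were -0.48, 0.55 and -3.81, and without replicate 3 of saline-treated MRL muscle that of Retnla was 0.13. Without replicate 2 of PE-treated B6 muscle the B6 differences of Arg1, Chil3 and Retnla were 0.73, 0.45 and -0.51.

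Saline-treated injury differed from uninjured B6 muscle by 1.63 for Arg1, 2.73 for Chil3, -0.75 for Retnla, 0.75 for Rnase2a, 1.42 for Ear2 and -0.70 for Mrgprg. In 4 of the 6 genes, Arg1, Chil3, Rnase2a and Ear2, the saline libraries were wholly above the uninjured ones, against 8.59% of all genes, although Rnase2a was under the floor in both groups. In MRL mice the differences were 1.36, 0.31, 1.61, 0.81, 0.23 and 0.00 in that order, and all 6 genes overlapped, against 5.97% of all genes wholly above. The sign was not stable in this MRL comparison, since it changed in at least 1 alternative analysis for 4 of the 6 genes, Chil3, Retnla, Ear2 and Mrgprg. Retnla went from 1.61 to -0.46 without replicate 3 of saline-treated MRL muscle. In B6 mice Retnla went from -0.75 to 0.93 without replicate 2 of uninjured muscle.

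The comparison of the strains within a treatment asks whether MRL muscle answers an injury or implant differently. After ECM the MRL minus B6 difference was -5.19 for Arg1, -9.15 for Chil3, -4.62 for Retnla, -2.11 for Rnase2a, -1.98 for Ear2 and 0.09 for Mrgprg. Arg1, Chil3, Rnase2a and Ear2 were wholly lower in MRL mice, 4 of the 6, against 12.8% of all genes, and none was wholly higher, against 12.9%. Retnla overlapped because of MRL replicate 3, and Mrgprg overlapped throughout. Without replicate 1 of ECM-treated B6 muscle the differences were -4.20, -7.90, -3.51, -1.30, -1.85 and 0.32 in the order given.

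In the other 3 treatments the strain differences were smaller or ran both ways. In uninjured muscle the MRL minus B6 difference was -0.53 for Arg1, -0.35 for Chil3, 0.33 for Retnla, 1.35 for Rnase2a, -1.03 for Ear2 and -1.11 for Mrgprg. Rnase2a was wholly higher in MRL mice (12.2% of all genes), and Ear2 and Mrgprg were wholly lower (9.61% of all genes). Most uninjured libraries of both strains were at or under the floor for Rnase2a and Mrgprg, so nothing is read from their separation. After saline the differences were -0.80, -2.77, 2.70, 1.42, -2.22 and -0.41 in that order, with Rnase2a wholly higher (7.48% of all genes) and Chil3 and Ear2 wholly lower (7.72% of all genes). The Retnla difference after saline was 0.62 without replicate 3 of MRL mice, and in uninjured muscle it ranged from -2.05 to 2.01 when 1 library was left out. After PE they were -2.08, -2.52, -0.98, 1.87, -0.94 and -0.38, with Rnase2a wholly higher (9.89% of all genes) and Chil3 and Ear2 wholly lower (7.59% of all genes). Arg1 overlapped after PE only through MRL replicate 2, at 1.54, against the lowest B6 value of 1.40, and without that library its difference was -2.67. Without replicate 2 of PE-treated B6 muscle it was -1.43, and the difference of Retnla was 1.26 instead of -0.98. The latter was -2.84 without replicate 2 of PE-treated MRL muscle, so that its sign and size depended on which library was left out.

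**Figure D3:**
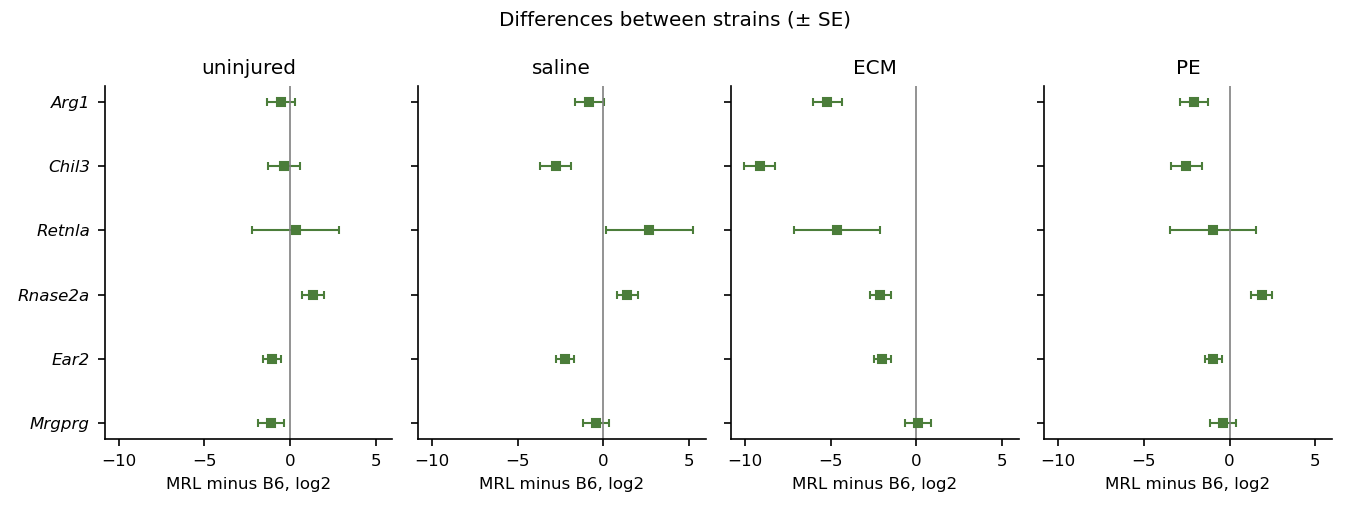
MRL minus B6 difference of each gene (horizontal axis, log2 CPM; vertical axis, gene) in uninjured muscle and after saline, ECM and PE, as limma coefficients with standard errors and 3 libraries in each group. After ECM 5 of the 6 genes lay left of 0, from -1.98 for Ear2 to -9.15 for Chil3, and Mrgprg lay at 0.09.

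The change of the ECM minus PE difference from B6 to MRL was -3.10 for Arg1 (SE 1.18), -6.63 for Chil3 (SE 1.29), -3.64 for Retnla (SE 3.57), -3.98 for Rnase2a (SE 0.88), -1.05 for Ear2 (SE 0.74) and 0.46 for Mrgprg (SE 1.05). Without replicate 2 of PE-treated MRL muscle the value for Retnla was -1.78. The direction held in every alternative analysis run for the first 5 genes and changed in 5 of 19 for Mrgprg. Because the genes were selected on these same libraries, a held direction is no test of them, and for Retnla the SE was nearly as large as the value. Over all genes, 0 of 14159 were called in this comparison by limma (0%), and 522 had an unadjusted p under 0.05.

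The 6 genes fell into loose groups by how they varied over the 24 libraries, which share 8 groups, so that these correlations describe the pattern over groups as well as over mice. Arg1 and Chil3 had a Pearson correlation of 0.91, Chil3 and Ear2 of 0.84, and Rnase2a and Mrgprg of 0.78. After the group means were removed, Arg1 and Chil3 still correlated at 0.64, Chil3 and Ear2 at 0.57, and Retnla and Rnase2a at 0.49. The likeness of Rnase2a and Mrgprg fell to -0.05, and Mrgprg correlated with none of the others beyond 0.16 in the positive direction.

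Outside the 6 genes, Ch25h had the pattern most like that of Arg1 and of Chil3, with Pearson correlations of 0.911 and 0.923 over the 24 libraries. It encodes cholesterol 25-hydroxylase, which makes an oxysterol in activated macrophages. Without the 2 libraries farthest from the median of each gene, which were replicates 1 and 3 of ECM-treated B6 muscle for both, the correlations were 0.781 and 0.804. Arg1 was next most like Soat2 (0.826), an enzyme that esterifies cholesterol, and Fcrlb (0.811), and Chil3 was next most like Rnf169 (0.893) and the chemokine gene Ccl7 (0.857). Retnla was most like Gm5148 (0.718), Dut (0.695) and Ch25h (0.686), the last of which fell to 0.46 without the 2 libraries farthest from its median. Rnase2a was most like Mgl2 (0.757), a lectin of alternatively activated macrophages, the chemokine gene Ccl8 (0.746) and Gm5148 (0.72). Ear2 was most like H2-Ab1 (0.865), which encodes a chain of MHC class II, Gm17907 (0.845) and Pcdhgc4 (0.831), and these 3 stayed at 0.842, 0.785 and 0.839 without 2 libraries. The correlations of Mrgprg with its nearest genes, Ube2m (0.671), Gm14324 (0.667) and 5830428H23Rik (0.658), were the weakest.

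The 6 genes and the macrophage markers were ordered differently by the implants in B6 mice. The mean log2 CPM of 9 macrophage markers was 5.27, 3.68 and 4.90 in the ECM-treated B6 libraries and 6.40, 7.36 and 5.80 in the PE-treated ones, so that the group with the lower marker level had the higher Arg1, Chil3, Retnla and Rnase2a. Relative to that mean, Arg1 stood at 3.25, 1.51 and 0.98 after ECM and at -5.00, -3.59 and -3.61 after PE in B6 mice. In ECM-treated MRL muscle, where the marker mean was 3.12 to 3.66, Arg1 stood at -1.82, -2.33 and -2.19 relative to it. Chil3 in the same way stood at 3.64, 0.68 and 1.04 after ECM in B6 mice and at -6.77, -6.59 and -5.24 in MRL mice. The strain with the lower Chil3 thus also had the lower marker mean after ECM, and Chil3 was lower relative to that mean as well.

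**Figure D4:**
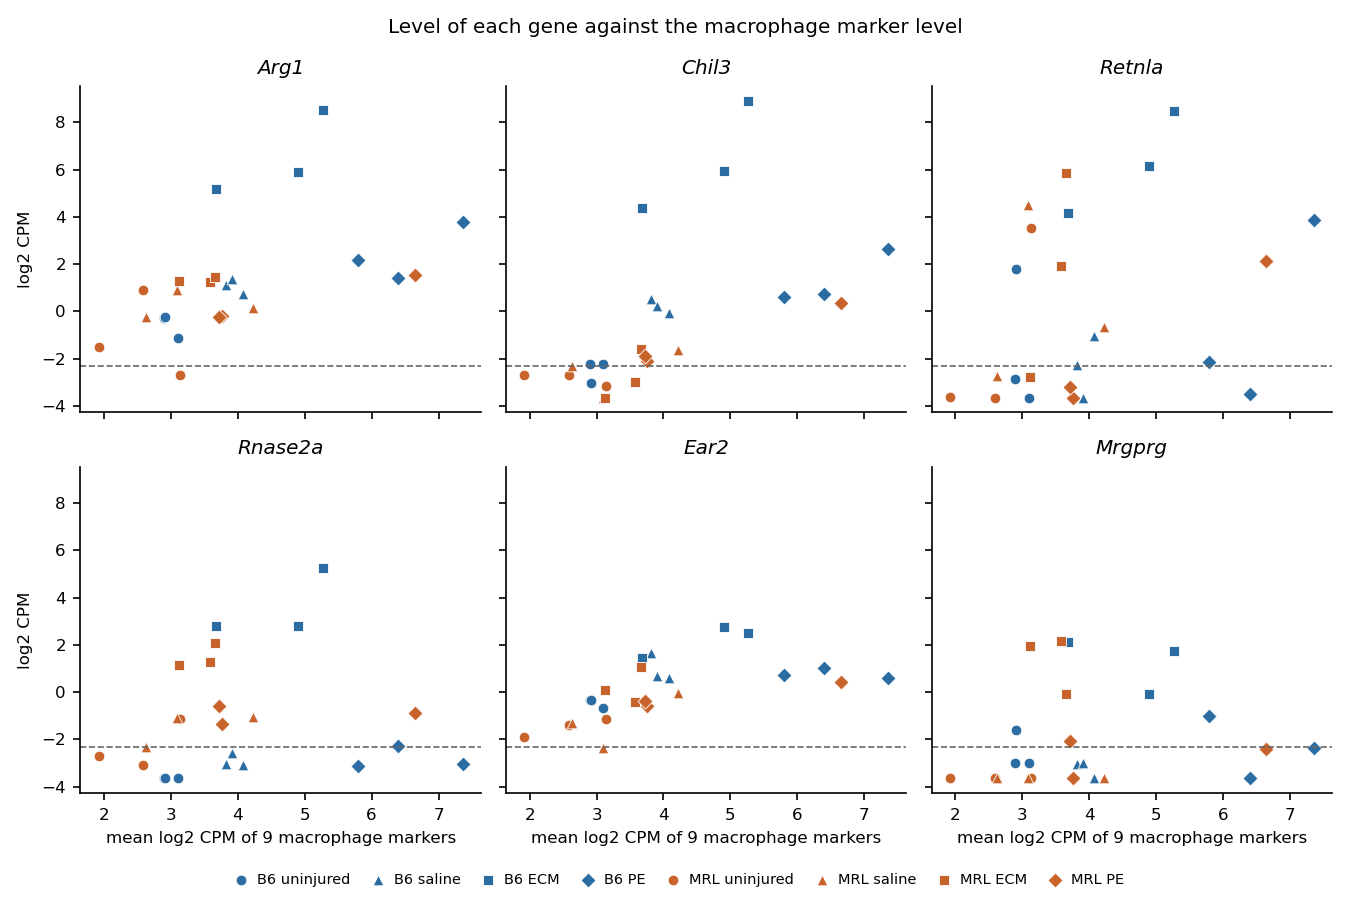
Level of each gene (vertical axis, log2 CPM) against the mean log2 CPM of 9 macrophage markers (horizontal axis) in the 24 libraries. Colour gives the strain, marker shape the treatment, and the dashed line 3 counts (-2.33). The ECM-treated B6 libraries lay above libraries with the same or a higher marker level for Arg1, Chil3 and Rnase2a, and the PE-treated libraries with the highest marker levels (up to 7.36) did not.

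Over the 24 libraries the correlation with the marker mean was 0.53 for Arg1, 0.59 for Chil3, 0.30 for Retnla, 0.13 for Rnase2a, 0.58 for Ear2 and 0.11 for Mrgprg. For deviations from the group means it was 0.46, 0.70, 0.60, 0.39, 0.54 and -0.12 in that order. PE-treated MRL replicate 2 had the highest marker mean of its group and also its highest Arg1, Chil3, Retnla and Ear2. Replicate 1 of ECM-treated B6 muscle was highest in its group for the marker mean, Arg1, Chil3, Retnla and Rnase2a. No values without these libraries are given, so how far the positive values of the first 5 genes rest on them is not shown. The part of macrophage number in the differences was not tested.

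Markers of other cells that could carry these transcripts were also read. Of 9 eosinophil markers 1, Siglecf, was measured, and it was lower after ECM than after PE in B6 mice (-0.57, -3.06 and -1.21 against 1.67, 2.40 and 0.53), opposite to Rnase2a and Ear2. Its levels were low, at 0.0404 to 0.594 CPM after ECM and 1.37 to 5.21 CPM after PE. In the paper, flow cytometry of SiglecF-positive cells gave the other order, with more eosinophils after ECM than after saline or PE in both strains. The measures are unlike, since flow cytometry gave a share of immune cells by surface protein. Siglecf here is RNA as a share of whole muscle RNA. Siglecf also reached 1.99 in the PE-treated MRL replicate 2 and -3.16 and -3.65 in the other 2 libraries of that group. The mean of the 4 measured neutrophil markers ranged from -0.24 to 0.08 in ECM-treated and from 1.81 to 4.65 in PE-treated B6 muscle, again opposite to the 6 genes in that comparison. Over the 24 libraries the mean of 7 markers of T cells and innate lymphoid cells correlated with Arg1, Chil3 and Ear2 at 0.69, 0.69 and 0.68, and that of 7 dendritic cell markers at 0.56, 0.61 and 0.61, both above the values for the macrophage markers. For deviations from the group means they were 0.58, 0.49 and 0.39, and 0.47, 0.64 and 0.55, against 0.46, 0.70 and 0.54 for the macrophage markers. That order thus did not hold within groups for Chil3, nor for Ear2 with the T cell list. The T cell and innate lymphoid mean was 0.86 to 1.48 in ECM-treated and 1.53 to 2.49 in PE-treated B6 muscle, and -0.87 to 0.33 in ECM-treated MRL muscle. The dendritic cell mean was 0.86 to 1.54, 1.89 to 2.55 and 0.46 to 0.78 in the same groups. Between ECM and PE in B6 mice Il7r (2.25 and 6.41) and Itgax (5.20 and 9.06) differed most in these lists. Cd4, Il1rl1, Flt3, Xcr1, Clec9a and Ccr7 were also lower after ECM. Cd3e (0.31 and 0.13), Cd3d (1.42 and 1.47), Cd3g (0.14 and -0.09) and Zbtb46 (3.08 and 3.06) differed little, and Gata3 and Cd209a were higher after ECM. The means are therefore not read as cell content. Siglecf itself correlated with Arg1, Chil3 and Ear2 at 0.44, 0.52 and 0.47. The part of these cells in the differences was not tested. Whether the cells that held the transcripts were macrophages was not tested.

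The other genes of the type 2 pathway were described with 3 lists, of which 43 genes were measured: 4 of 12 ligands, 17 of 20 receptors and signalling genes, and 22 of 25 further targets of alternative activation. Between ECM and PE, 0 of the 43 were called in either strain by limma with adjustment over all genes, with 16 in B6 and 13 in MRL mice at an unadjusted p under 0.05. In the whole matrix 32 genes passed in B6 muscle (0.226%) and 0 in MRL muscle (0%, with 4022 at an unadjusted p under 0.05). The median difference of the 43 genes was -0.19 in B6 and -0.78 in MRL mice, beside 4.57 and 1.70 for the 6 genes and -0.01 and -0.08 for all genes. Since the 6 genes were selected on these same libraries, nothing is read from the gap between their median and the others. The 0 in B6 mice depended on the weighting of libraries, since 23 of the 43 were called with library weights and 19 with weights estimated gene by gene.

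Between ECM and saline 0 of the 43 genes were called in either strain, with 8 in B6 and 2 in MRL mice at an unadjusted p under 0.05 by limma. With the same pair of weightings 19 and 3 were called in B6 mice. The median difference was 0.62 in B6 mice, where 34 of the 43 were positive, and -0.03 in MRL mice, where 19 were positive. The medians of all genes were 0.03 and -0.01. Ch25h, Mgl2 and Ccl8 had differences of 4.20 (SE 0.82), 1.96 (SE 0.55) and 3.96 (SE 0.92) in B6 mice, with groups that did not overlap, and adjusted p values of 0.119, 0.766 and 0.433 by limma over all genes. Mrc1, the mannose receptor of alternatively activated macrophages, read 8.09, 5.40 and 6.55 after ECM and 4.76, 5.46 and 4.88 after saline in B6 mice, and the groups overlapped. The library with the highest Mrc1 and Mgl2 (6.66) was again replicate 1 of ECM-treated B6 muscle.

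Between PE and saline in B6 mice 7 of the 43 genes were higher and 0 lower by limma with adjustment over all genes, beside 845 of all genes (5.97%). They were the receptor genes Il2rg (2.24, adjusted p = 0.0448) and Csf2rb (4.68, adjusted p = 0.0298), the interleukin-1 receptor antagonist Il1rn (6.64, adjusted p = 0.0177), the scavenger receptor Msr1 (4.84, adjusted p = 0.0177), Trem2 (5.34, adjusted p = 0.0258), Egr2 (3.86, adjusted p = 0.0261) and the glucan receptor Clec7a (4.69, adjusted p = 0.0283). The call of these genes rests on single libraries, since 0 to 2 of the 43 were called without any one of the 3 saline libraries or without PE replicates 1 or 2, and 8 without PE replicate 3. The macrophage markers Cd68 (4.52, adjusted p = 0.0198) and Emr1, the gene of F4/80 (2.88, adjusted p = 0.0306), rose in the same comparison. None of the 6 genes was among the 845, a number that was 2 without PE replicate 2 of B6 mice. In MRL mice 0 of the 43 genes were called (11 at an unadjusted p under 0.05, limma), as were 0% of all genes (3298 at an unadjusted p under 0.05).

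After saline against uninjured muscle 0 of the 43 genes were called in either strain by limma, with 5 in B6 and 0 in MRL mice at an unadjusted p under 0.05, and 0% of all genes in both strains, with 1751 and 439 at an unadjusted p under 0.05. Between the strains 0 of the 43 were called in uninjured muscle and 0 after saline by limma (3 and 4 at an unadjusted p under 0.05), while 2.6% and 2.51% of all genes were. After ECM 1 of the 43 was lower in MRL mice, beside 2.66% of all genes. That gene was Ch25h, with a difference of -4.60 (SE 0.82, adjusted p = 0.00188), and it read 4.92, 1.16 and 1.85 in B6 and -2.42, -2.57 and -0.89 in MRL mice. After PE 3 of the 43 were called, beside 3.35% of all genes: Jak3 (1.39, adjusted p = 0.0115) and Cish (3.04, adjusted p = 0.0117), both of cytokine signalling, were higher and Clec7a (-4.54, adjusted p = 0.0347) was lower in MRL mice. With the replicate number as a block 2 were called, and Clec7a was lost (adjusted p = 0.0532). Without replicate 2 of PE-treated MRL muscle 15 of the 43 were called in that comparison, and 0 to 1 without any other of its libraries except PE-treated B6 replicate 2. Cish was also higher in MRL mice in uninjured muscle (2.06) and after saline (2.12), but not after ECM (-1.08). Jak3 was also higher in uninjured muscle (0.44), after saline (0.82) and after ECM (0.53). These differences in the other treatments were not called.

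**Figure D5:**
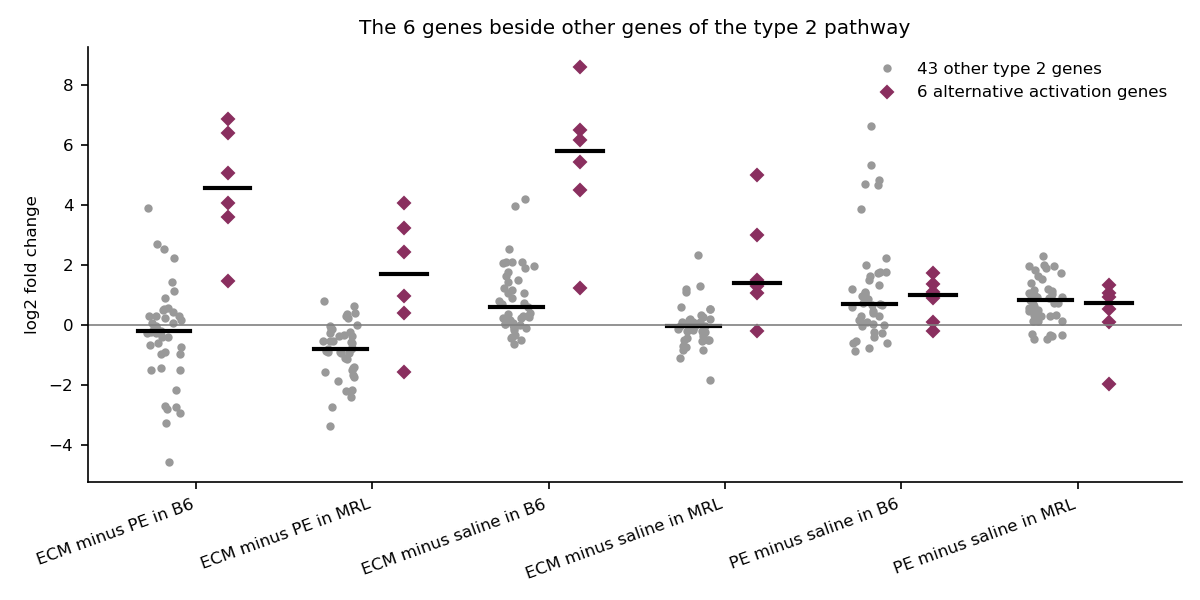
Difference between treatments (vertical axis, log2 fold change) of the 43 other type 2 genes (grey points) and of the 6 genes (purple diamonds) in 6 comparisons (horizontal axis), with black bars at the medians. In ECM minus saline in B6 mice the medians were 0.62 and 5.81, and in PE minus saline in B6 mice 0.71 and 1.00. The 6 genes were selected on these same libraries, so the gap between the medians is not a test.

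The signal upstream of the 6 genes was measured only in part. Il4 read 0.06, 0.13 and -0.20 after ECM, -0.48, -1.19 and 0.71 after saline and -1.23, 0.13 and -0.50 after PE in B6 mice. In ECM-treated MRL muscle it read -1.31, -1.06 and -1.04, wholly below the B6 libraries, with a difference of -1.13 (SE 0.52) that did not pass the test (limma adjusted p = 0.354). Il13, the other cytokine of this receptor, was not analysed here. The receptor chain Il4ra read 4.84, 2.41 and 2.09 after ECM and 1.90, 2.70 and 1.54 after saline in B6 mice, and 2.31, 2.09 and 0.71 after ECM in MRL mice. Stat6 was at 5.52 ± 0.39 after ECM and 5.52 ± 0.22 after saline in B6 mice (SD, n = 3 each). Il33, an alarmin that starts type 2 responses, was at 2.64 ± 0.84 and 2.61 ± 0.64 in the same groups. For Il4ra, Stat6 and Il33 no difference in any of the 13 comparisons passed the test. The standard error of these differences was 0.64 for Il4ra in log2 units, so that a modest change would not have been detected.

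Of the 15 measured genes of arginine metabolism 0 were called in each of the 13 comparisons by limma, with 0 to 5 of them at an unadjusted p under 0.05, while 0% to 5.97% of all genes were called, so that nothing is read from the count. Slc7a2, a transporter of arginine, was at 7.37 after ECM, 5.91 after PE and 5.93 after saline in B6 mice, with the ECM libraries wholly above both. Its differences were 1.46 from PE (SE 0.41, adjusted p = 0.0904) and 1.44 from saline (SE 0.41, adjusted p = 0.766). It was at 6.11 after ECM in MRL mice, wholly below B6 (-1.26, adjusted p = 0.133). Arg2, the mitochondrial arginase, read -2.55 ± 0.45 after ECM and 0.42 ± 1.46 after PE in B6 mice, the opposite order to Arg1 but with 2 of the 3 ECM libraries at or under the floor, with a difference of -2.97 (SE 0.84, adjusted p = 0.0904). Nos2, the inducible nitric oxide synthase, was at 1.60 ± 0.51 after ECM and -0.10 ± 0.73 after PE in B6 mice, a difference of 1.70 (SE 0.62, adjusted p = 0.146).

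Of 14 measured genes of classical activation, 8 were higher after PE than after saline in B6 mice by limma, beside 5.97% of all genes, among them Irg1 (7.42, adjusted p = 0.0108), Il1b (5.42, adjusted p = 0.0194), Tnf (4.70, adjusted p = 0.00999) and Ptgs2 (4.34, adjusted p = 0.00999). Between ECM and PE in B6 mice Il1b (-5.66, adjusted p = 0.0443) and Ptgs2 (-4.42, adjusted p = 0.0294) were lower after ECM, in the comparison in which all 6 genes lay higher. The calls rested on single libraries. Without 1 library 0 to 8 of the 14 were called between PE and saline in B6 mice (0 without PE replicate 1 or 2) and 0 to 3 between ECM and PE (3 without PE replicate 3, otherwise 0). In MRL mice 0 of the 14 were called between PE and saline, with 1 at an unadjusted p under 0.05. Within groups the mean of this list correlated with Arg1 at 0.40, with Chil3 at 0.52 and with Retnla at 0.54. Of the 9 measured relatives in the gene families of the 6, 0 were called between ECM and PE or between ECM and saline in either strain by limma, with 0 to 2 at an unadjusted p under 0.05.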

How the data were processed

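Bulk RNA of whole quadriceps was sequenced in 24 libraries of separate mice. The authors quantified reads with kallisto against mouse cDNA (GRCm39), summarized them to genes with tximport, kept genes above 1 CPM in at least 3 libraries, normalized with TMM and deposited log2 CPM from edgeR, which carry a prior count of 2. Reads of both strains were thus assigned to sequences of the C57BL/6J reference. Depth per library is not given by these values, and the mean effective library size was worked out from the lowest value. The paper lists the reads of each library, which were not used here. The precision is set by the 3 mice of each group. The row without a gene symbol was left out (1 of 14160).

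Groups were taken from the sample titles. Differences between groups came from limma 3.58.1 (R 4.3.3), fitted to the deposited log2 CPM of the 24 libraries together with a coefficient for each group, a trended variance, 2-sided tests and Benjamini-Hochberg adjustment over 14159 genes within each comparison, and genes were called at an adjusted p under 0.05. The fit was tested on simulated data. The 6 genes and all gene lists were chosen with earlier results of these data known. Besides the 6 genes, the text names the 3 genes with the highest Pearson correlation with each, members of the lists that were called without overlap (up to 4 in each direction with the largest difference), a set of standing pathway and marker genes, and near copies. Genes named for a count of 5 or fewer, Il4, Slc7a2 and the shown Retnlg fall in part outside this rule and were chosen after their values were seen. Older symbols stand for Adgre1 (Emr1) and Acod1 (Irg1). Transcripts of GENCODE release 39 were compared with BLAST 2.17.0, and near copies were those 90% or more identical across 50% or more of the shorter sequence. Promoter windows were aligned with Biopython 1.88.

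Alternatives were log2(CPM + 1), a filter at a mean log2 CPM of 1, quantile normalization, equal totals, library weights, a fit of the compared groups alone, the replicate number as a block, and leaving out each library. Deviations from the group means were correlated between same-numbered libraries. Only for MRL against B6 after PE were all 3 correlations above 0.1 (0.105, 0.532 and 0.439), and the labels do not say what the numbers share.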

Additional observations from a re-analysis of the deposited data

How the results depend on the processing

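The number of the 43 type 2 genes called depended on the fit more than on the scale. With limma's library weights the count was 23 for ECM minus PE in B6 and 4 in MRL mice, 19 for ECM minus saline in B6, 30 for PE minus saline in B6 and 7 in MRL, 15 for saline minus uninjured in B6, 1, 13, 16 and 27 for MRL minus B6 in uninjured, saline, ECM and PE muscle, and 16 for the strain difference of ECM minus PE. The default estimate of these weights did not converge, so a gene-by-gene estimate was added after the data were seen, and it gave 19, 4, 3, 16, 6, 7, 1, 7, 16, 24 and 7 in the same order. With log2(CPM + 1) 2 were called for ECM minus PE in B6 and 2 for MRL minus B6 in ECM, with quantile normalization 2 for ECM minus PE in B6, and with equal totals 2 for ECM minus PE in MRL. The filter at a mean log2 CPM of 1 left 0 for MRL minus B6 in ECM, since it removes Ch25h. With the compared groups alone the count was 2 for ECM minus PE in B6, 1 for MRL minus B6 in uninjured, 2 in ECM and 0 in PE muscle.

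Leaving out 1 library gave 0 to 1 for ECM minus PE in B6 and 0 to 4 in MRL (4 without MRL PE replicate 3), 0 to 8 for PE minus saline in B6 and 0 to 3 in MRL (3 without MRL saline replicate 1), 0 to 1 for saline minus uninjured in B6, 0 to 1 for MRL minus B6 in saline, 1 to 2 in ECM and 0 to 15 in PE muscle, and 0 to 4 for the strain difference of ECM minus PE (4 without MRL PE replicate 2). In all, 138 counts stayed within 1.5 times the reported one, 39 were higher and 11 lower. With the replicate block the count for MRL minus B6 in PE was 2, without Clec7a, and no other count changed. Over all genes the block gave 111 calls for ECM minus PE in MRL, where there were 0 without it.

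Equal totals moved the median of all genes most for ECM minus PE in MRL, from -0.08 to -0.42 on the log2 scale, so that small differences depend on the scaling. For the 6 genes the direction of ECM minus PE and of ECM minus saline in B6 held in all alternatives. This is a description and no test, because the genes were selected on these same libraries. Calls over all genes ranged from 0 to 5579 for ECM minus PE in B6 (32 reported) and 0 to 2311 in MRL (0), 0 to 2227 for ECM minus saline in B6 (4) and 0 to 13 in MRL (1), 2 to 9640 for PE minus saline in B6 (845) and 0 to 3303 in MRL (0), 0 to 4785 for saline minus uninjured in B6 (0), 223 to 920, 152 to 5919, 235 to 2411 and 113 to 7996 for MRL minus B6 in uninjured, saline, ECM and PE muscle (368, 356, 376 and 474), and 0 to 1886 for the strain difference of ECM minus PE (0). These upper ends came with library weights. With 3 mice per group and a floor set at the mean library size, levels under 3 counts could not be told from 0.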
